A study of Oryctolagus cuniculus with 134 samples.

Results

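The chemokines and chemokine receptors of the rabbit were taken as every annotated gene whose symbol begins with CCL, CXCL, CX3CL, XCL, CCR, CXCR, CX3CR, XCR or ACKR followed by a digit, which gave 34 of the 29587 genes in the count table. Chemokines are small secreted proteins that form gradients along which leukocytes crawl out of the blood and through a tissue. Each binds one or several G protein-coupled receptors on the migrating cell, and the atypical receptors (ACKR) bind the same ligands without G protein signalling and clear them. In the atherosclerotic artery they are known for drawing monocytes and T cells into the intima. The rule selected on the symbol alone and not on any measured value. Members known in other mammals that carried no such symbol here, among them CXCL12, CXCL16, CCR2 and ACKR1, were not analysed here.

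Total RNA was sequenced from an aortic ring and from the aortic, mitral, pulmonary and tricuspid valves of 27 male New Zealand White rabbits, with all 5 tissues from 26 rabbits and 4 tissues from 1 rabbit, which gave 134 libraries. Protocols began at 12 weeks of age and lasted 16 weeks. Ctrl rabbits (7) ate chow without added vitamin D2. CHT rabbits (6) ate chow with 0.3% cholesterol and drank vitamin D2 at 25000 U/day per 2.5 kg of body weight for the first 15 days, Lard rabbits (7) ate chow with 5% lard and drank the same vitamin D2, and IR/CHT rabbits (7) had the CHT protocol plus 24 Gy of cardiac irradiation in 3 fractions of 8 Gy after 8 weeks of diet. Each tissue therefore had 7 libraries per group (6 for CHT in every tissue and 6 for Ctrl in the mitral valve). Because every fed group had vitamin D2 and Ctrl had not, the effects of diet and of vitamin D2 cannot be told apart, and irradiation was compared only on top of the CHT protocol. The 3 comparisons against Ctrl in a tissue share the same Ctrl libraries and so are not independent of each other.

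Libraries held 13564979 to 50577676 gene counts (median 18235577) and were made on 2 plates of 67 libraries each. Plate 2 held every aortic library, so all comparisons of treatments in the aorta are within that plate. Plate 1 held every aortic or mitral valve from CHT rabbits, so comparisons in those valves were also made within a plate and every call lost there is named. The labelled tissues carried their markers: the summed level of 5 smooth muscle markers in Ctrl libraries was 99492 (78998 to 110661) CPM in the aorta and 894.8 (460.9 to 1300.0) CPM in the aortic valve, given here and throughout as the median library with the lowest and highest in parentheses. CPM is the count of a gene scaled to the total count of its library after TMM scaling over all 134 libraries, and it is used to compare libraries for a gene, never one gene with another. Aortic valve libraries differed in how much heart muscle they carried, with 8 heart muscle markers summing to 809.3 (176.6 to 12633) CPM in Ctrl, 56.9 (9.76 to 352.04) CPM in CHT, 76.4 (16.7 to 240.8) CPM in Lard and 47.5 (20.02 to 242.2) CPM in IR/CHT. In IR/CHT pulmonary valves 2 libraries stood apart, L176 with smooth muscle markers at 19815 CPM where the group median was 613.2 CPM, and L275 with endothelial markers at 111.4 CPM where the median was 1544 CPM.

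Of the 34 members, 23 had enough counts to be tested in at least 1 tissue. Tested in all 5 tissues were 14 (CCL2, CCL13, CCL14, CCL21, CXCL5, CXCL8, CXCL10, CX3CL1, CXCR1, CXCR4, CX3CR1, ACKR2, ACKR3 and ACKR4). A further 7 passed only in the aorta and both left-sided valves (CCL19, CXCL9, CCR1, CCR6, CCR7, CCR9 and CXCR6), CCL5 passed in the aorta and aortic valve and CXCL11 in the aorta. The other 11 (CCL11, CCL20, CCL22, CXCL13, CXCL17, CCR8, CCR10, CXCR2, CXCR3, CXCR5 and XCR1) passed in no tissue. When every gene was tested with no such filter, 3 of the 11 were called higher in the CHT aorta (CCL11, CXCR3 and XCR1), and 8 were called higher and CXCR5 lower in the IR/CHT aorta (the 8 were CCL11, CCL20, CCL22, CXCL13, CCR8, CXCR2, CXCR3 and XCR1), where 10.9% and 21.2% of all genes were called. In the IR/CHT aortic valve 4 of them (CCL20, CCR8, CXCR2 and CXCR3) and CXCL11 were called higher that way, against 28% of all genes. These shares of all genes count calls in both directions. A member that passed only through the group where it was high had to differ between groups, so the counts below are a description. CCL2 with CCL13, and CXCR1 with CXCR2, are similar in sequence, and the split of reads within each pair is uncertain.

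A member was called when edgeR's quasi-likelihood test gave a Benjamini-Hochberg adjusted p under 0.05 over all genes tested in the tissue and a fold over 1.5. In the aorta under CHT, 15 of 23 tested members were called higher and 0 lower, where 14.2% of all tested genes were called higher. The median log2 fold change was 3.1 over these members and -0.04 over all genes. Under IR/CHT 17 members rose and 2 fell, against 22.2% and 12.2% of all genes, with medians of 3.46 and 0.0. Under Lard 3 rose and 0 fell, against 2.57% of all genes called higher, and without Lard replicate L578 there was 1. When the 2 groups compared were fitted alone, with fewer members past the count filter, 8 were called under CHT and 0 under Lard. Those fits tested 13559 and 13265 genes, and the shares of all genes above do not belong to them.

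In the aortic valve 7 of 22 tested members rose under CHT (8.42% of all genes), and 16 rose and 1 fell under IR/CHT (21.1% and 21.7% of all genes). The median log2 fold change of the members was 1.2 under CHT and 2.21 under IR/CHT, where all genes had -0.02 and -0.06. Within plate 1 alone, with fewer libraries, the called members were 4 under CHT and 10 under IR/CHT, and within plate 2 alone 14 members were called under IR/CHT. In the mitral valve 5 of 21 tested members rose under CHT (4.98% of all genes), and 10 rose and 1 fell under IR/CHT (11.1% and 6.65% of all genes). Within plate 1 these were 2 and 7 members, and within plate 2 there were 3 for IR/CHT. The plate fits of both valves tested other sets of genes, so the shares of all genes given here do not belong to them. Without CHT replicate L229 the mitral valve had 3 calls for CHT and without IR/CHT replicate L195 it had 7 for IR/CHT. Under Lard edgeR called 0 members in either left-sided valve, with 3 at an unadjusted p under 0.05 in the aortic valve and 0 in the mitral valve. DESeq2 also called 0 there, and 0.234% and 0% of all genes were called. In the pulmonary and tricuspid valves 0 of 14 tested members were called in any comparison.

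**Figure D1:**
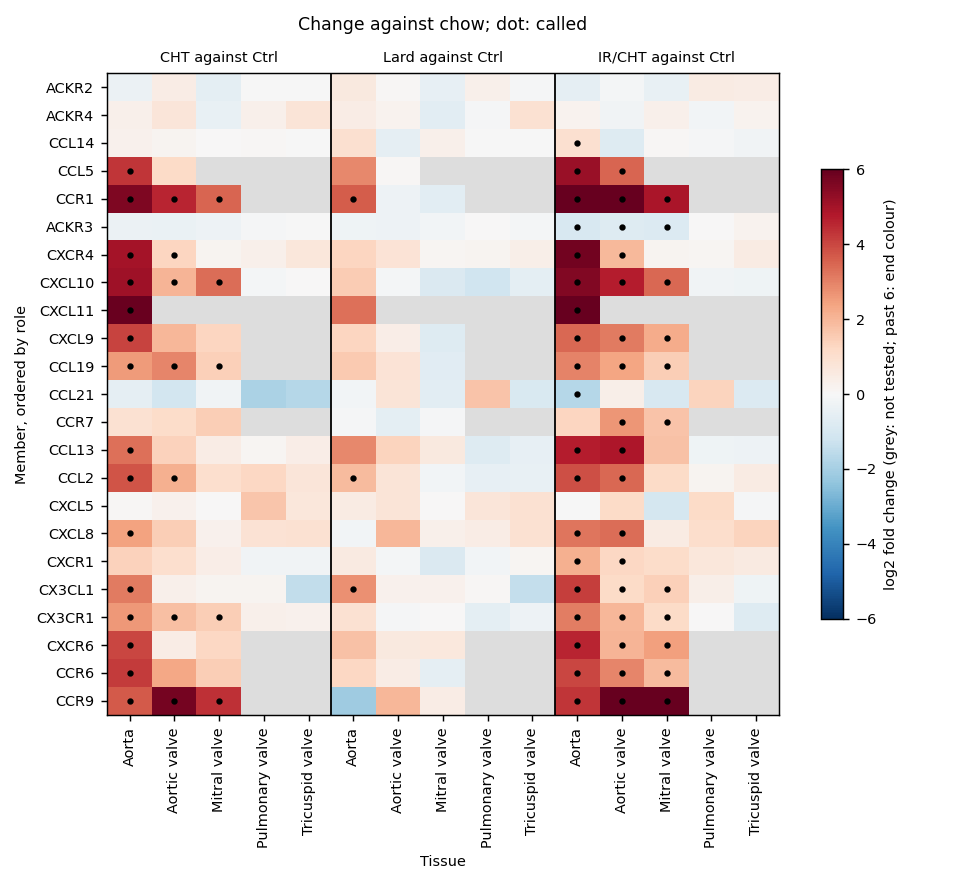
Fitted log2 fold change (colour) of each of the 23 members tested in at least 1 tissue (rows) in each tissue (columns, in 3 blocks for CHT, Lard and IR/CHT against Ctrl). Dots mark called members, grey cells were not tested and values past 6 take the end colour. The columns of the aorta and both left-sided valves for CHT and IR/CHT hold all dots except the 3 of the Lard aorta, and the pulmonary and tricuspid valve columns hold none.

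Many of the folds start from very low levels. Of the members with a Ctrl median of at least 10 counts, 9 in the aorta, 11 in the aortic valve and 15 in the mitral valve, those called higher numbered 2, 3 and 3 under CHT, and 3, 5 and 4 under IR/CHT. Those called lower numbered 0 in each under CHT, and 2, 1 and 1 under IR/CHT. The shares of all genes given above are over every gene tested, whatever its Ctrl counts. The share among all genes with such a Ctrl median was not computed. In these bulk samples fewer cells of a type and less RNA per cell cannot be told apart. Markers of leukocytes moved in the same comparisons. The summed level of 16 macrophage markers in the aorta was 353.8 (292.6 to 452.7) CPM in Ctrl, 1394 (732.5 to 1613) CPM in CHT, 550.3 (367.2 to 700.3) CPM in Lard and 1942 (1104 to 3022) CPM in IR/CHT. Levels in the aortic valve were 574.9 (262.1 to 734.2) CPM in Ctrl, 1469 (1073 to 1539.6) CPM in CHT and 3382 (2856 to 3585) CPM in IR/CHT. In both tissues the fed cholesterol groups lay above every Ctrl library. The macrophage markers called higher under CHT were 13 of 16 in the aorta, 9 of 16 in the aortic valve and 12 of 16 in the mitral valve, with 15 of 16, 14 of 16 and 13 of 16 under IR/CHT and 8 of 16 in the Lard aorta, and no macrophage marker was at or under 3 counts in all libraries of any of these Ctrl groups except MARCO in the mitral valve. Their part in the changes below was not tested.

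CCL2 (ENSOCUG00000021710), the classical monocyte attractant that acts on CCR2, was 1.12 CPM (0.626 to 1.45) in Ctrl aortas, 11 CPM (5.36 to 25.4) in CHT, 3.13 CPM (0.871 to 5.89) in Lard and 12.1 CPM (7.98 to 23.3) in IR/CHT. All CHT and IR/CHT aortas lay above all Ctrl aortas, whereas Lard aortas overlapped them. CCL2 rose 13.7-fold under CHT (log2 fold change 3.77 ± 0.42, adjusted p = 1.38e-07), 14.5-fold under IR/CHT (log2 fold change 3.86 ± 0.41, adjusted p = 3.51e-08) and 3.68-fold under Lard (log2 fold change 1.88 ± 0.4, adjusted p = 0.00979). The Lard call was lost when the Lard and Ctrl aortas were fitted alone.

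CCL2 in the aortic valve was 1.67 CPM (1.2 to 2.76) in Ctrl, 8.66 CPM (4.52 to 11) in CHT and 18 CPM (14.1 to 25.9) in IR/CHT, 3 ranges that did not overlap. It rose 4.32-fold under CHT (log2 fold change 2.11 ± 0.39, adjusted p = 0.000386) and 10.9-fold under IR/CHT (log2 fold change 3.45 ± 0.4, adjusted p = 8.58e-08), and within plate 1 these were log2 fold change 2.31, adjusted p = 0.0173 and log2 fold change 3.49, adjusted p = 0.000344. In Lard aortic valves it was 1.8 CPM (1.21 to 7.45) and was not called (log2 fold change 0.78 ± 0.38, adjusted p = 0.44). CCL2 in the mitral valve was 2.88 CPM (1.67 to 8.88) in Ctrl, 5.61 CPM (3.05 to 17.5) in CHT and 8.95 CPM (3.15 to 11) in IR/CHT, with overlapping ranges. Neither comparison was called there (log2 fold change 1.0 ± 0.46, adjusted p = 0.245 for CHT and log2 fold change 1.14 ± 0.44, adjusted p = 0.0584 for IR/CHT).

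CCL13 (ENSOCUG00000013412), another attractant of monocytes through CCR2, was 0.435 CPM (0 to 0.623) in Ctrl aortas, 3.21 CPM (1.18 to 5.9) in CHT and 6.52 CPM (1.14 to 20.7) in IR/CHT. Every CHT and IR/CHT aorta exceeded every Ctrl aorta, and CCL13 rose in both (log2 fold change 3.31 ± 0.9, adjusted p = 0.00671 and log2 fold change 4.7 ± 0.91, adjusted p = 0.000126). Levels in the aortic valve were 0.209 CPM (0.0492 to 1.34) in Ctrl, 0.78 CPM (0.104 to 1.75) in CHT and 8.05 CPM (1.75 to 14.7) in IR/CHT. Only the IR/CHT change was called there (log2 fold change 4.86 ± 1.0, adjusted p = 0.00025, and a log2 fold change of 5.82 without Ctrl replicate L240).

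**Figure D2:**
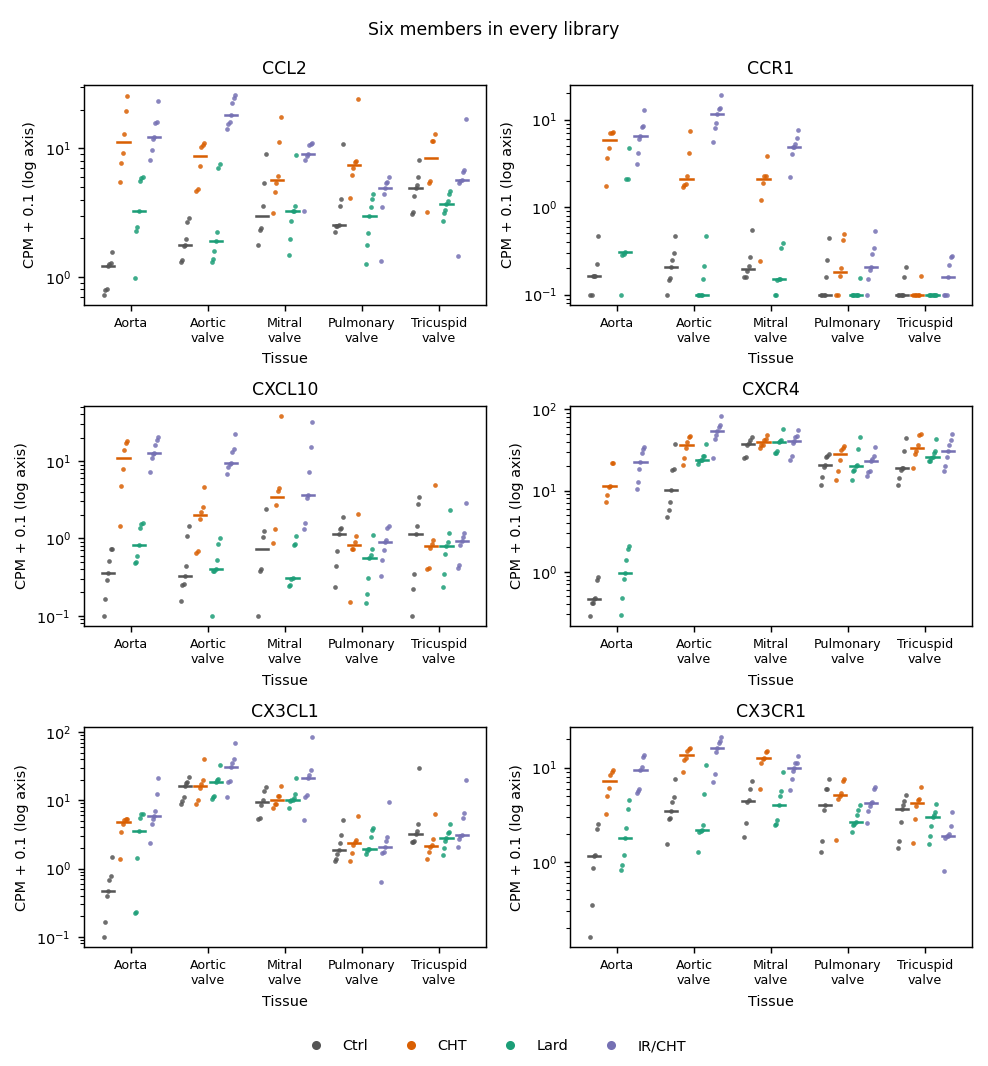
Level (CPM + 0.1, vertical log axis) of CCL2, CCR1, CXCL10, CXCR4, CX3CL1 and CX3CR1 in all 134 libraries by tissue (horizontal axis) and treatment (colour), with a point per library and a line at the group median. For CCL2 in the aorta the CHT and IR/CHT points sit wholly above the Ctrl points, and for CXCR4 the separation seen in the aorta is absent in the mitral valve.

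CCR1 (ENSOCUG00000003658), a receptor of monocytes and other leukocytes for several CC chemokines including CCL5 and CCL14, was 0.0632 CPM (0 to 0.373) in Ctrl aortas, 5.75 CPM (1.67 to 7.13) in CHT, 0.207 CPM (0 to 4.61) in Lard and 6.41 CPM (3.002 to 12.9) in IR/CHT. Its CHT and IR/CHT ranges did not overlap that of Ctrl, whereas the Lard libraries ran from 0 into the CHT range. CCR1 rose 49.3-fold under CHT (log2 fold change 5.62 ± 0.86, adjusted p = 1.65e-05) and 69-fold under IR/CHT (log2 fold change 6.11 ± 0.86, adjusted p = 2.55e-06). Without Ctrl replicate L551 the log2 fold changes were 6.46 and 6.94, and under Lard 4.49. Its rise under Lard (log2 fold change 3.66 ± 0.86, adjusted p = 0.0179) was lost without Lard replicate L578 (log2 fold change 2.9 ± 0.81, adjusted p = 0.0672).

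CCR1 in the aortic valve was 0.105 CPM (0 to 0.372) in Ctrl, 1.98 CPM (1.61 to 7.34) in CHT, 0 CPM (0 to 0.372) in Lard and 11.6 CPM (5.49 to 18.9) in IR/CHT. The CHT and IR/CHT valves lay above all Ctrl valves, and CCR1 rose 23.8-fold (log2 fold change 4.57 ± 0.67, adjusted p = 1.7e-05) and 90.4-fold (log2 fold change 6.5 ± 0.7, adjusted p = 2.07e-08). Within plate 1 these were log2 fold change 5.57, adjusted p = 0.00586 and log2 fold change 7.81, adjusted p = 0.000124. CCR1 in the mitral valve was 0.0985 CPM (0.0588 to 0.452) in Ctrl, 1.98 CPM (0.145 to 3.72) in CHT and 4.79 CPM (2.1 to 7.46) in IR/CHT. The CHT valves overlapped Ctrl and the IR/CHT valves did not, and CCR1 rose in both (log2 fold change 3.51 ± 0.65, adjusted p = 0.000707 and log2 fold change 4.91 ± 0.66, adjusted p = 4.27e-06), with plate 1 values of log2 fold change 3.34, adjusted p = 0.0151 and log2 fold change 4.74, adjusted p = 0.000885. Without Ctrl replicate L199 the mitral log2 fold changes were 4.21 and 5.61.

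CCL5, a T cell and macrophage product that binds CCR1, was at or under 3 counts in every Ctrl aorta, so its folds there are lower bounds. It was at least 2.52-fold higher under CHT (adjusted p = 0.00289) and at least 4.5-fold higher under IR/CHT (adjusted p = 0.000135). It also rose in the aortic valve under IR/CHT (log2 fold change 3.51 ± 0.78, adjusted p = 0.000527), with a call within plate 2 (log2 fold change 4.26, adjusted p = 0.00913) and none within plate 1 (log2 fold change 2.81, adjusted p = 0.0886). Without Ctrl replicate L182 its log2 fold change there was 4.32. CCL14, a ligand of CCR1 found constitutively in plasma, was 3.38 CPM (1.15 to 5.71) in Ctrl aortas and 7.33 CPM (2.87 to 10.05) in IR/CHT aortas, with overlap. It rose 1.98-fold there (log2 fold change 0.98 ± 0.33, adjusted p = 0.0163), and it was called in no comparison against Ctrl in a valve.

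CXCL9, CXCL10 and CXCL11 are the interferon-induced ligands of CXCR3, the receptor of effector T cells and NK cells. CXCL10 was 0.254 CPM (0 to 0.626) in Ctrl aortas, 10.8 CPM (1.36 to 18.1) in CHT, 0.725 CPM (0.383 to 1.47) in Lard and 12.8 CPM (7.18 to 20.5) in IR/CHT. The CHT and IR/CHT aortas lay above all Ctrl aortas, and CXCL10 rose 34-fold (log2 fold change 5.09 ± 0.58, adjusted p = 2.1e-07) and 46.4-fold (log2 fold change 5.54 ± 0.58, adjusted p = 2.42e-08).

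CXCL10 in the aortic valve was 0.223 CPM (0.0564 to 1.33) in Ctrl, 1.9 CPM (0.544 to 4.55) in CHT and 9.41 CPM (6.73 to 22.1) in IR/CHT. Only the IR/CHT range was clear of the others. It rose under IR/CHT (log2 fold change 4.7 ± 0.64, adjusted p = 9.55e-07, and within plate 1 log2 fold change 4.51, adjusted p = 0.000953). Its rise under CHT (log2 fold change 2.05 ± 0.61, adjusted p = 0.024) was not called within plate 1 (log2 fold change 1.66, adjusted p = 0.212) with plate as a covariate (log2 fold change 1.72, adjusted p = 0.119) or with the 2 groups compared fitted alone, and it was lost when any 1 of 4 libraries was left out (Ctrl replicates L150, L166 and L261 and CHT replicate L228).

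CXCL10 in the mitral valve was 0.623 CPM (0 to 2.29) in Ctrl, 3.31 CPM (0.776 to 37.8) in CHT and 3.56 CPM (1.21 to 31.6) in IR/CHT, with overlapping ranges and 1 CHT library, L229, far above the others. Both comparisons were called (log2 fold change 3.34 ± 0.97, adjusted p = 0.0338 for CHT and log2 fold change 3.46 ± 0.96, adjusted p = 0.00853 for IR/CHT). The CHT call was lost without L229 (log2 fold change 1.67 ± 0.82, adjusted p = 0.309) and also without any 1 of 5 Ctrl replicates (L156, L183, L199, L241 and L262). It was also lost when the CHT and Ctrl valves were fitted alone. Within plate 1 neither comparison was called (log2 fold change 3.81, adjusted p = 0.0907 and log2 fold change 3.49, adjusted p = 0.069), nor was IR/CHT within plate 2 (log2 fold change 3.29, adjusted p = 0.195). Its log2 fold changes were 3.99 and 4.09 without Ctrl replicate L278, and under IR/CHT 2.7 without IR/CHT replicate L548.

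CXCL9 rose in the aorta under CHT (log2 fold change 4.07 ± 0.86, adjusted p = 0.000732) and IR/CHT (log2 fold change 3.46 ± 0.84, adjusted p = 0.00127) and in the aortic valve under IR/CHT (log2 fold change 3.13 ± 0.84, adjusted p = 0.00305), there with a call within plate 1 (log2 fold change 4.92, adjusted p = 0.00518) and none within plate 2 (log2 fold change 2.4, adjusted p = 0.126). It also rose in the mitral valve under IR/CHT (log2 fold change 2.24 ± 0.79, adjusted p = 0.0363), where leaving out any 1 of Ctrl replicates L156, L183, L199 and L241 ended the call, leaving out any 1 of IR/CHT replicates L237, L258, L274 and L548 left it under the count filter, and neither plate alone gave one (log2 fold change 2.2, adjusted p = 0.177 and log2 fold change 2.17, adjusted p = 0.292). The aortic log2 fold changes of CXCL9 were 4.79 and 4.17 without Ctrl replicate L553, and under CHT 3.37 without CHT replicate L560. CXCL11 had 0 counts in every Ctrl aorta, and its CHT and IR/CHT aortas were at least 2.27-fold and at least 2.29-fold higher (adjusted p = 0.00965 and 0.0038). Without any 1 of IR/CHT replicates L565, L566 and L581 it was under the filter for IR/CHT. CXCR3 itself passed the count filter in no tissue, and with no filter it was called higher in the CHT and IR/CHT aorta (adjusted p = 0.0247 and 0.00154). Of the T and NK cell markers, 3 of 6 rose in the aorta under CHT and 6 of 6 under IR/CHT, and their summed level was 1.01 (0.376 to 4.17) CPM in Ctrl, 11.8 (9.06 to 13.8) CPM in CHT and 14.9 (7.5 to 28.2) CPM in IR/CHT aortas. Among them CD27, CD28, NKG7 and PRF1 were at or under 3 counts in every Ctrl aorta, and the part of these cells in the result was not tested.

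Next were the CXC chemokines that attract neutrophils. CXCL8 (ENSOCUG00000011835), the main ligand of CXCR1 and CXCR2, was 0.187 CPM (0 to 0.621) in Ctrl aortas, 0.926 CPM (0.555 to 2.55) in CHT and 1.74 CPM (0.633 to 3.98) in IR/CHT. The CHT aortas overlapped Ctrl slightly and the IR/CHT aortas did not, and CXCL8 rose in both (log2 fold change 2.4 ± 0.68, adjusted p = 0.00877 and log2 fold change 3.23 ± 0.67, adjusted p = 0.000253). Levels in the aortic valve were 0.498 CPM (0 to 0.905) in Ctrl, 1.15 CPM (0.492 to 2.94) in CHT, 1.35 CPM (0.309 to 4.93) in Lard and 4.68 CPM (1.74 to 8.59) in IR/CHT. Every IR/CHT valve exceeded every Ctrl valve, and only that comparison was called (log2 fold change 3.33 ± 0.63, adjusted p = 8.64e-05). The Lard difference was log2 fold change 2.01 ± 0.61, adjusted p = 0.284. CXCL8 in the mitral valve was 1.02 CPM (0.5002 to 1.23) in Ctrl and 1.12 CPM (0.801 to 3.02) in IR/CHT and was not called (log2 fold change 0.51 ± 0.53, adjusted p = 0.523).

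CXCR1, a neutrophil receptor for CXCL8, rose under IR/CHT in the aorta (log2 fold change 2.13 ± 0.52, adjusted p = 0.00148) and the aortic valve (log2 fold change 1.23 ± 0.49, adjusted p = 0.0391). In the aorta it was 2.83 on the log2 scale without Ctrl replicate L551. The aortic valve call was lost when any 1 of 9 of the 14 libraries was left out and within either plate. CXCL5, an epithelial and stromal ligand of CXCR2, was called in no comparison against Ctrl. Neutrophil markers were sparse. Of the listed markers 10 were in the files and 3 were tested in the aorta, with summed levels of 1.49 (0.564 to 2.85) CPM in Ctrl, 10.3 (2.77 to 18.1) CPM in CHT, 6.52 (0.684 to 141.4) CPM in Lard and 7.35 (2.94 to 69.9) CPM in IR/CHT aortas. In aortic valves the sums were 2.1 (0.857 to 5.32) CPM in Ctrl and 4.61 (3.84 to 10.7) CPM in CHT. They were 4.15 (0.696 to 9.64) CPM in Lard and 6.01 (5.19 to 24.7) CPM in IR/CHT valves, and all overlapped Ctrl. The granule protein MMP8 was at or under 3 counts in every aorta, and S100A8, S100A12 and CAMP likewise in every Ctrl aorta. The part of neutrophils in the result was not tested.

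CCL19 and CCL21 guide T cells and dendritic cells that carry CCR7 into lymphoid tissue, and in the IR/CHT aorta the one rose and the other fell. CCL19 was 0.19 CPM (0 to 0.666) in Ctrl aortas, 1.79 CPM (0.827 to 2.34) in CHT and 1.6 CPM (0.78 to 4.7) in IR/CHT, and both fed ranges lay above Ctrl. It rose in the aorta under CHT (log2 fold change 2.53 ± 0.62, adjusted p = 0.00312) and IR/CHT (log2 fold change 2.97 ± 0.61, adjusted p = 0.000247). Levels in the aortic valve were 0.295 CPM (0.0953 to 0.442) in Ctrl, 1.32 CPM (0.57 to 5.32) in CHT and 1.41 CPM (0.58 to 2.31) in IR/CHT, again without overlap with Ctrl. It rose there in both (log2 fold change 2.95 ± 0.6, adjusted p = 0.00103 and log2 fold change 2.38 ± 0.58, adjusted p = 0.00143, and within plate 1 log2 fold change 3.18, adjusted p = 0.0263 and log2 fold change 2.39, adjusted p = 0.0298).

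CCL19 in the mitral valve was 0.687 CPM (0.358 to 1.0004) in Ctrl, 1.66 CPM (1.01 to 4.04) in CHT and 1.96 CPM (1.1 to 3.33) in IR/CHT, and neither fed range overlapped Ctrl. It rose under IR/CHT (log2 fold change 1.48 ± 0.36, adjusted p = 0.00285), with a call within plate 1 (log2 fold change 1.51, adjusted p = 0.0493) and none within plate 2 (log2 fold change 1.49, adjusted p = 0.182). Its rise under CHT (log2 fold change 1.42 ± 0.36, adjusted p = 0.0147) was lost without CHT replicate L229 (log2 fold change 1.07 ± 0.35, adjusted p = 0.0706) and was not called within plate 1 (log2 fold change 1.4, adjusted p = 0.108).

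CCL21 was 217.6 CPM (68.8 to 426.9) in Ctrl aortas, 134.3 CPM (101.7 to 192.4) in CHT, 175.5 CPM (92.6 to 369.9) in Lard and 58.6 CPM (31.2 to 118.8) in IR/CHT. The IR/CHT aortas were lowest, with some overlap, and CCL21 fell 3.24-fold against Ctrl (log2 fold change -1.7 ± 0.38, adjusted p = 0.000535). The difference between IR/CHT and CHT aortas was log2 fold change -1.16 ± 0.38, adjusted p = 0.103 and was not called. Beside this, 4 of 5 smooth muscle markers fell in IR/CHT aortas, where their summed level was 29894 (11041 to 59427) CPM, and their part in the result was not tested. CCR7, the receptor for both ligands, was 0.338 CPM (0 to 0.825) in Ctrl aortic valves and 1.74 CPM (1.35 to 3.83) in IR/CHT, without overlap, and rose 6.3-fold (log2 fold change 2.65 ± 0.57, adjusted p = 0.000413, and within plate 1 log2 fold change 2.46, adjusted p = 0.0294). Its rise in the IR/CHT mitral valve (log2 fold change 1.7 ± 0.61, adjusted p = 0.0399) was lost when any 1 of 8 of the 13 libraries was left out and within plate 2 (log2 fold change 1.06, adjusted p = 0.637), and was called within plate 1 (log2 fold change 2.17, adjusted p = 0.0276). The B cell ligand CXCL13 and its receptor CXCR5 passed the filter nowhere.

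CXCR4 (ENSOCUG00000001923), the receptor for CXCL12 on most leukocytes and on some endothelial cells, was called in the aorta and the aortic valve and not in the mitral valve. In the aorta it was 0.363 CPM (0.188 to 0.759) in Ctrl, 11.2 CPM (7.22 to 21.9) in CHT, 0.857 CPM (0.192 to 1.96) in Lard and 22.6 CPM (10.4 to 34.2) in IR/CHT. The CHT and IR/CHT aortas lay far above Ctrl and the Lard aortas overlapped it. CXCR4 rose 32-fold under CHT (log2 fold change 5.0 ± 0.46, adjusted p = 8.62e-09) and 55.5-fold under IR/CHT (log2 fold change 5.79 ± 0.46, adjusted p = 4.52e-10), and the Lard difference was log2 fold change 1.27 ± 0.46, adjusted p = 0.156.

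CXCR4 in the aortic valve was 10.2 CPM (4.62 to 37.8) in Ctrl, 36.7 CPM (20.4 to 47) in CHT, 24.1 CPM (21.2 to 37.1) in Lard and 53.5 CPM (25.2 to 82.2) in IR/CHT. The Ctrl valve L198 was as high as the fed groups, so all ranges overlapped. CXCR4 rose under IR/CHT (log2 fold change 1.94 ± 0.35, adjusted p = 5.12e-05, and within plate 1 log2 fold change 1.65, adjusted p = 0.00812). Its rise under CHT (log2 fold change 1.28 ± 0.36, adjusted p = 0.0159) was not called within plate 1 (log2 fold change 0.73, adjusted p = 0.29), with plate as a covariate (log2 fold change 0.96, adjusted p = 0.0893) or with the 2 groups compared fitted alone. CXCR4 in the mitral valve was 37.4 CPM (25.4 to 45.1) in Ctrl, 39.1 CPM (33.3 to 48.4) in CHT and 41.2 CPM (23.7 to 55) in IR/CHT, 3 ranges that lay over each other. Neither was called (log2 fold change 0.17 ± 0.19, adjusted p = 0.738 and log2 fold change 0.17 ± 0.18, adjusted p = 0.533).

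ACKR3 (ENSOCUG00000010906), the atypical receptor that takes up CXCL12, went the other way. It was 45.9 CPM (21.3 to 56.3) in Ctrl aortas and 21 CPM (16.5 to 25) in IR/CHT aortas, with a slight overlap, and fell 1.96-fold (log2 fold change -0.97 ± 0.28, adjusted p = 0.00517). Levels in the aortic valve were 12.1 CPM (9.57 to 17.2) in Ctrl and 7.28 CPM (6.64 to 8.37) in IR/CHT, and the ranges did not overlap. It fell 1.74-fold there (log2 fold change -0.79 ± 0.18, adjusted p = 0.00084, and within plates 1 and 2 log2 fold change -0.72, adjusted p = 0.0693 and log2 fold change -0.82, adjusted p = 0.0466). Levels in the mitral valve were 14.3 CPM (9.98 to 16.6) in Ctrl and 7.3 CPM (6.08 to 10.6) in IR/CHT, again with a slight overlap, and fell 1.75-fold (log2 fold change -0.81 ± 0.23, adjusted p = 0.011), without a call within either plate (log2 fold change -0.72, adjusted p = 0.127 and log2 fold change -0.89, adjusted p = 0.165). ACKR3 was thus the member called lower in all 3 left-sided tissues under IR/CHT, and under CHT and Lard it was called in none of them.

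CX3CL1 is a membrane-tethered chemokine of endothelium and smooth muscle that holds CX3CR1-bearing monocytes and T cells by adhesion. It was 0.373 CPM (0 to 1.37) in Ctrl aortas, 4.77 CPM (1.29 to 5.24) in CHT, 3.43 CPM (0.124 to 6.13) in Lard and 5.78 CPM (2.28 to 21) in IR/CHT. The IR/CHT aortas lay above all Ctrl aortas, and the CHT and Lard aortas overlapped Ctrl at their lower ends. CX3CL1 rose 8.58-fold under CHT (log2 fold change 3.1 ± 0.75, adjusted p = 0.00291) and 17.8-fold under IR/CHT (log2 fold change 4.15 ± 0.76, adjusted p = 6.74e-05). Its rise under Lard (log2 fold change 2.74 ± 0.74, adjusted p = 0.0418) was lost when any 1 of 10 of the 14 libraries was left out, with no filter on low counts and with the 2 groups compared fitted alone. Endothelial markers moved in the same aortas, with 7 of 8 called higher under CHT, 7 of 8 under IR/CHT and 2 of 8 under Lard and summed levels of 197.4 (114.6 to 231.5) CPM in Ctrl, 584.7 (209.2 to 1000.1) CPM in CHT, 335.1 (239.5 to 591.5) CPM in Lard and 763.7 (262.5 to 1117) CPM in IR/CHT. The Lard and IR/CHT ranges lay above that of Ctrl. None of the 8 was at the floor in any group, and their part in the result was not tested.

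CX3CL1 in the aortic valve was 16.2 CPM (8.86 to 22) in Ctrl, 16 CPM (8.68 to 40.2) in CHT and 30.6 CPM (10.9 to 68) in IR/CHT, with overlap throughout. It rose only under IR/CHT (log2 fold change 1.16 ± 0.37, adjusted p = 0.0109), with a call within plate 2 (log2 fold change 1.54, adjusted p = 0.00916) and none within plate 1 (log2 fold change 0.84, adjusted p = 0.23). Levels in the mitral valve were 9.23 CPM (5.22 to 15.6) in Ctrl and 21.1 CPM (5.09 to 83.5) in IR/CHT. Its rise there (log2 fold change 1.45 ± 0.44, adjusted p = 0.0155) was lost without IR/CHT replicate L195 (log2 fold change 0.8 ± 0.34, adjusted p = 0.0965), with plate as a covariate (log2 fold change 1.16, adjusted p = 0.0525) and when the 2 groups compared were fitted alone. It was called within plate 2 (log2 fold change 2.67, adjusted p = 0.0434) and not within plate 1 (log2 fold change 0.34, adjusted p = 0.648).

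CX3CR1 (ENSOCUG00000027509), its receptor, was 1.06 CPM (0.0606 to 2.42) in Ctrl aortas, 7.12 CPM (3.08 to 9.26) in CHT and 9.26 CPM (5.22 to 13.6) in IR/CHT, and both fed ranges lay above Ctrl. It rose in both (log2 fold change 2.62 ± 0.51, adjusted p = 0.000315 and log2 fold change 3.06 ± 0.51, adjusted p = 2.002e-05). Levels in the aortic valve were 3.38 CPM (1.44 to 7.48) in Ctrl, 13.6 CPM (8.95 to 16.1) in CHT and 16 CPM (6.85 to 20.8) in IR/CHT, and only the CHT range was clear of Ctrl. The changes were log2 fold change 1.8 ± 0.41, adjusted p = 0.00308 and log2 fold change 2.01 ± 0.4, adjusted p = 0.000172, and within plate 1 they were not called (log2 fold change 1.74, adjusted p = 0.142 and log2 fold change 1.8, adjusted p = 0.0528), whereas the IR/CHT change was called within plate 2 (log2 fold change 2.22, adjusted p = 0.00144). Levels in the mitral valve were 4.32 CPM (1.76 to 7.13) in Ctrl, 12.4 CPM (5.82 to 14.9) in CHT and 9.75 CPM (5.72 to 13) in IR/CHT, with overlap, and it rose in both (log2 fold change 1.47 ± 0.34, adjusted p = 0.00586 and log2 fold change 1.17 ± 0.33, adjusted p = 0.00902), with plate 1 values of log2 fold change 1.9, adjusted p = 0.00939 and log2 fold change 1.7, adjusted p = 0.0109. Within plate 2 the IR/CHT change was not called (log2 fold change 0.46, adjusted p = 0.447).

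CXCR6, the receptor of resident and effector T cells for the tethered chemokine CXCL16, rose in the aorta under CHT (log2 fold change 4.0 ± 0.88, adjusted p = 0.00121) and IR/CHT (log2 fold change 4.56 ± 0.87, adjusted p = 0.000107), with log2 fold changes of 4.86 and 5.42 without Ctrl replicate L551. It rose under IR/CHT in the aortic valve (log2 fold change 2.05 ± 0.62, adjusted p = 0.00837) and the mitral valve (log2 fold change 2.46 ± 0.64, adjusted p = 0.00554). The aortic valve gave a call within plate 2 (log2 fold change 3.08, adjusted p = 0.0336) and none within plate 1 (log2 fold change 1.09, adjusted p = 0.341), and the mitral valve gave one within neither (log2 fold change 2.15, adjusted p = 0.0735 and log2 fold change 2.88, adjusted p = 0.174 for plates 1 and 2). Without any 1 of IR/CHT replicates L179, L195, L237 and L548 the mitral valve could not be tested, as CXCR6 was then under the count filter.

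A pair of receptors known from mucosal homing, CCR9 for gut T cells and CCR6 for B cells, dendritic cells and Th17 cells, were at or near 0 in chow tissues. CCR9 was 0 CPM (0 to 0.0523) in Ctrl aortic valves, 0.53 CPM (0.424 to 1.48) in CHT and 1.57 CPM (0 to 4.04) in IR/CHT. All CHT valves exceeded all Ctrl valves, and the lowest IR/CHT valve had no counts. It was at least 4.25-fold higher under CHT (adjusted p = 0.000181) and at least 10.9-fold higher under IR/CHT (adjusted p = 1.18e-06). Levels in the mitral valve were at least 1.89-fold higher under CHT (adjusted p = 0.0105, and not called within plate 1 with adjusted p = 0.122) and at least 8.25-fold higher under IR/CHT (adjusted p = 2.92e-05).

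In the aorta CCR9 was 0 CPM (0 to 0.249) in Ctrl, 0.647 CPM (0.185 to 2.32) in CHT and 1.38 CPM (0 to 2.83) in IR/CHT, with overlap, and rose in both (log2 fold change 3.7 ± 0.83, adjusted p = 0.00136 and log2 fold change 4.29 ± 0.81, adjusted p = 0.000101, or log2 fold changes of 4.56 and 5.14 without Ctrl replicate L552). CCR6 rose in the aorta under CHT (log2 fold change 4.17 ± 1.04, adjusted p = 0.00362) and IR/CHT (log2 fold change 4.02 ± 1.03, adjusted p = 0.00203) and in the aortic valve under IR/CHT (log2 fold change 2.92 ± 0.86, adjusted p = 0.00631), there in neither plate alone. The CCR6 counts in Ctrl aortas were all in 1 library, L569, and without it the fitted aortic log2 fold changes, against libraries with no counts, were 6.73 and 6.57. CCR6 in the mitral valve was 0.163 CPM (0 to 0.251) in Ctrl and 0.49 CPM (0.141 to 1.58) in IR/CHT, and its call (log2 fold change 1.92 ± 0.72, adjusted p = 0.0493) was lost when any 1 of 10 of the 13 libraries was left out and within either plate (log2 fold change 1.59, adjusted p = 0.309 and log2 fold change 3.9, adjusted p = 0.0868). B cell markers summed to 9.36 (4.03 to 19.1) CPM in Ctrl, 36.8 (18 to 86.9) CPM in CHT and 119.9 (90.1 to 149.7) CPM in IR/CHT aortic valves. Of the 5 tested there 2 rose under CHT and 3 rose and 1 fell under IR/CHT, MS4A1 was at or under 3 counts in every Ctrl valve, and their part in the result was not tested.

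The other atypical receptors were ACKR2 and ACKR4. ACKR2, a scavenger of inflammatory CC chemokines, was 12.3 CPM (3.67 to 25.1) in Ctrl aortas and 9.55 CPM (2.54 to 11) in IR/CHT aortas and was called in no treatment comparison of any tissue. ACKR4, a scavenger of CCL19 and CCL21, was likewise called in none, with 3.38 CPM (0.387 to 10.1) in Ctrl and 2.53 CPM (0.348 to 7.11) in IR/CHT aortic valves. A p that misses the threshold does not show that the levels were equal.

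Irradiation was compared with the same diet alone. In the aortic valve 7 of 22 members were called higher and 0 lower in IR/CHT against CHT, where 9.9% of all genes were called higher. The members had a median log2 fold change of 1.01 against 0.02 for all genes. Of the 11 members with a Ctrl median of at least 10 counts, 1 was called higher and 0 lower. The 9.9% is over all tested genes, whatever their Ctrl counts. With plate as a covariate 7 were called, and within plate 1, where all CHT valves were, 3 were (CXCL10, CCL13 and CCR1). CXCL10 (log2 fold change 2.64 ± 0.6, adjusted p = 0.00212) and CCL2 (log2 fold change 1.34 ± 0.39, adjusted p = 0.0125) were the called members whose IR/CHT valves all exceeded all CHT valves, and in plate 1 alone they had log2 fold change 2.85, adjusted p = 0.00414 and log2 fold change 1.18, adjusted p = 0.0592. CCL13 (log2 fold change 3.47 ± 0.97, adjusted p = 0.0104) and CCR1 (log2 fold change 1.93 ± 0.56, adjusted p = 0.0128) also rose, with plate 1 values of log2 fold change 3.01, adjusted p = 0.0235 and log2 fold change 2.25, adjusted p = 0.018.

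The other 3 calls were less firm. CCL5 (log2 fold change 2.38 ± 0.76, adjusted p = 0.0228) was lost without CHT replicate L228 (log2 fold change 2.14 ± 0.79, adjusted p = 0.06002), CXCL8 (log2 fold change 1.87 ± 0.61, adjusted p = 0.0268) without any 1 of 6 of the 13 libraries and CCR7 (log2 fold change 1.56 ± 0.57, adjusted p = 0.0476) without any 1 of 10. All 3 missed the threshold within plate 1, and CCR7 also with plate as a covariate. Macrophage markers moved in the same direction, with 12 of 16 called higher in IR/CHT against CHT aortic valves, as did 5 of 7 T and NK cell markers, and their part in the result was not tested. The summed level of the macrophage markers was 1469 (1073 to 1539.6) CPM in CHT and 3382 (2856 to 3585) CPM in IR/CHT.

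**Figure D3:**
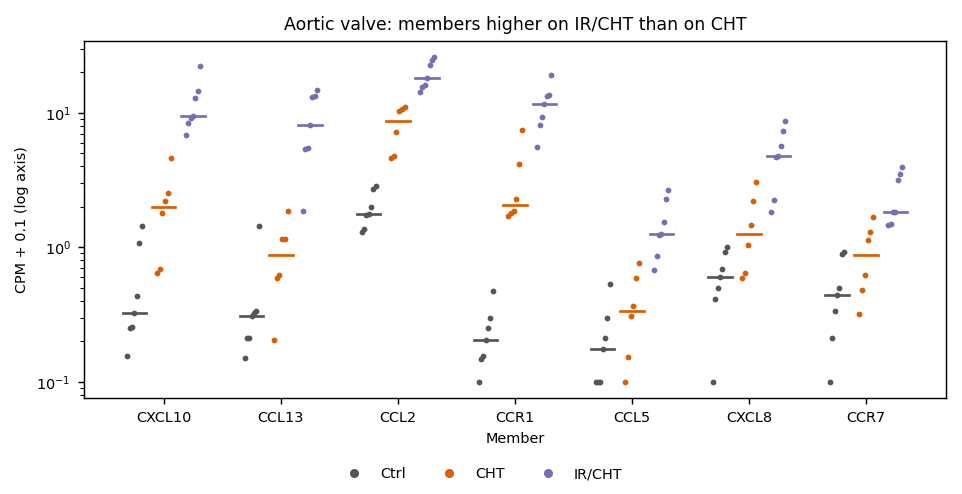
Level (CPM + 0.1, vertical log axis) in each Ctrl, CHT and IR/CHT aortic valve (colour) of the 7 members called in IR/CHT against CHT (horizontal axis), with a point per library and a line at the group median. The IR/CHT points of CXCL10 and CCL2 sit above every CHT point, and those of the other 5 overlap them.

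In the aorta edgeR called 0 of 23 members in IR/CHT against CHT, with 3 at an unadjusted p under 0.05 (CCL21, ACKR3 and CXCR4) and 0 by DESeq2, where 0.596% of all genes were called. CXCR4 differed by log2 fold change 0.8 ± 0.37, adjusted p = 0.205 and CCL2 by log2 fold change 0.08 ± 0.37, adjusted p = 0.906. In the mitral valve edgeR called 0 of 21 with 6 at an unadjusted p under 0.05 and 0 by DESeq2, where 0.189% of all genes were called. Whether the effect of irradiation differed among tissues was not tested directly.

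The right-sided valves gave no calls, and without the IR/CHT pulmonary valves L176 or L275 there were likewise 0. In the pulmonary valve the smallest adjusted p over the 4 comparisons was 0.125 and in the tricuspid valve 0.480. At an unadjusted p under 0.05 the pulmonary valve had 2 members for CHT, 0 for Lard, 1 for IR/CHT against Ctrl and 2 for IR/CHT against CHT, and the tricuspid valve had 3, 1, 2 and 1. DESeq2 called 1, in the pulmonary valve for IR/CHT against CHT, and 0 elsewhere. Of all genes 0.159%, 0%, 0.706% and 0.0761% were called in the 4 pulmonary comparisons and 0.163%, 0%, 0.231% and 0% in the tricuspid ones.

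CCL2 in the pulmonary valve was 2.42 CPM (2.15 to 10.7) in Ctrl, 7.32 CPM (3.99 to 24.2) in CHT and 4.86 CPM (1.22 to 5.93) in IR/CHT. The Ctrl valve L184 lay within the CHT range, and the CHT difference was log2 fold change 1.25 ± 0.41, adjusted p = 0.286. CCL2 in the tricuspid valve was 4.83 CPM (2.996 to 8.06) in Ctrl, 8.39 CPM (3.12 to 13) in CHT and 5.6 CPM (1.34 to 17) in IR/CHT. CX3CR1 was 3.89 CPM (1.18 to 7.39) in Ctrl and 4.07 CPM (2.5 to 6.06) in IR/CHT pulmonary valves and 3.54 CPM (1.3 to 5.003) and 1.76 CPM (0.702 to 3.3) in the tricuspid valves. CXCR4 was 20.4 CPM (11.6 to 28) in Ctrl and 22.8 CPM (15 to 34.8) in IR/CHT pulmonary valves, and 18.8 CPM (11.6 to 44.1) and 30.6 CPM (17.2 to 50) in tricuspid valves. The groups overlapped for each of these. Macrophage markers were called higher under IR/CHT for 4 of 16 in the pulmonary valve and 2 of 15 in the tricuspid valve.

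The tissues of chow-fed rabbits were compared in 4 pairs. In the aortic valve against the aorta 6 of 24 tested members were higher and 3 lower, where 32% and 17.7% of all genes were. The share of members called was no larger than that of all genes. CXCR4 was 34.7-fold higher in the valve (log2 fold change 5.12 ± 0.45, adjusted p = 1.33e-13) and CX3CL1 32.2-fold higher (log2 fold change 5.01 ± 0.65, adjusted p = 8.93e-09), and for both all valves exceeded all aortas. CCL21 was 138.9-fold lower in the aortic valve (log2 fold change -7.12 ± 0.82, adjusted p = 4.84e-10), at 1.57 CPM (0.111 to 2.71) there against 217.6 CPM (68.8 to 426.9) in the aorta. ACKR3 was 2.97-fold lower (log2 fold change -1.57 ± 0.24, adjusted p = 5.04e-07).

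CCL14 (log2 fold change 1.6 ± 0.38, adjusted p = 0.00041), CX3CR1 (log2 fold change 1.85 ± 0.46, adjusted p = 0.000732) and CXCR6 (log2 fold change 2.45 ± 0.85, adjusted p = 0.0119) were also higher in the aortic valve, CXCR6 with a log2 fold change of 3.31 without Ctrl replicate L551. CCL2 (log2 fold change 0.96 ± 0.4, adjusted p = 0.0375) was higher too, but not when any 1 of Ctrl replicates L166, L240, L553, L568 and L570 was left out. ACKR2 was lower (log2 fold change -1.11 ± 0.36, adjusted p = 0.00704), and with the rabbit as a block it was not called (-0.9 ± 0.39, adjusted p = 0.0519) while CXCR1 was higher (1.48 ± 0.6, adjusted p = 0.0349).

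**Figure D4:**
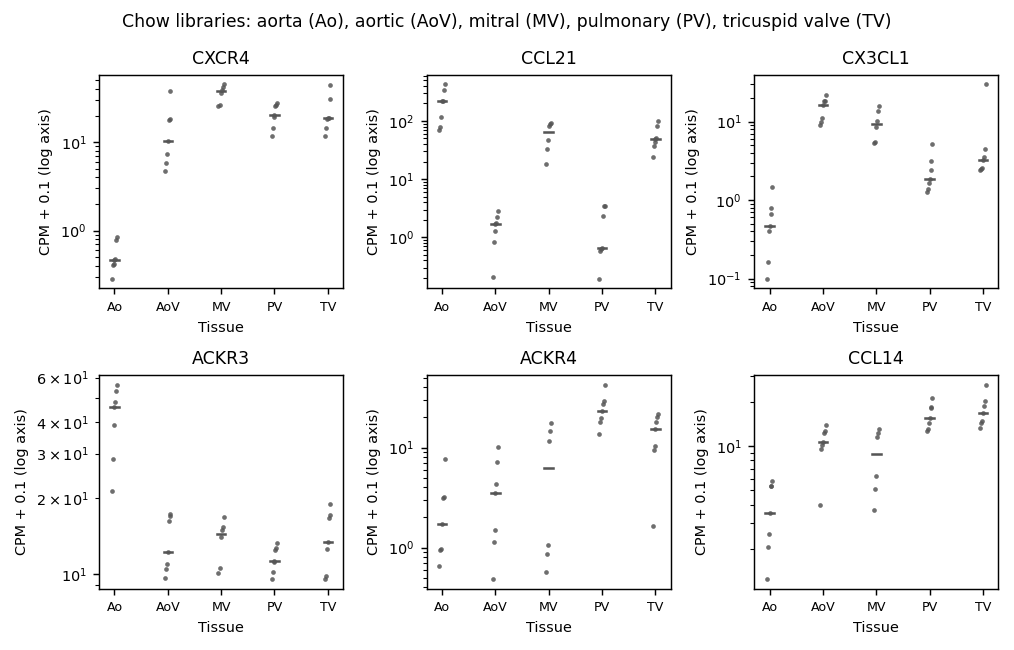
Level (CPM + 0.1, vertical log axis) of CXCR4, CCL21, CX3CL1, ACKR3, ACKR4 and CCL14 in every Ctrl library by tissue (horizontal axis), with a point per library and a line at the median. CCL21 is high in the aorta and the mitral and tricuspid valves and low in the aortic and pulmonary valves, and CXCR4 is low in the aorta and high in each valve.

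Against the aortic valve, the mitral valve had 2 of 24 members higher and 0 lower (2.62% and 3.56% of all genes). These were CCL21 (log2 fold change 5.39 ± 0.82, adjusted p = 2.58e-05), at 63.5 CPM (17.9 to 93.1) in the mitral valve with all its libraries above all aortic valves, and CXCR4 (log2 fold change 1.31 ± 0.29, adjusted p = 0.00538). With the rabbit as a block CCL2 (1.05 ± 0.3, adjusted p = 0.00945) and CCL19 (1.52 ± 0.5, adjusted p = 0.0214) joined them, and without Ctrl replicate L262 4 members were called in place of 2. The pulmonary valve had 3 of 22 higher and 2 lower than the aortic valve (20% and 29.1% of all genes). ACKR4 was 23.2 CPM (13.5 to 42.5) in the pulmonary valve, above all aortic valves (log2 fold change 2.64 ± 0.67, adjusted p = 0.000782), and CX3CL1 was 1.77 CPM (1.18 to 5.09), below all of them (log2 fold change -2.71 ± 0.44, adjusted p = 1.88e-06).

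CCR1, CCR7 and CCR9 did not pass the count filter in the pulmonary valve alone, nor CCL19, CCR1 and CCR6 in the tricuspid valve alone, and their differences against the left-sided valves are descriptions. CCR7 was also lower in the pulmonary valve (log2 fold change -2.03 ± 0.75, adjusted p = 0.0178). CCL2 (log2 fold change 1.08 ± 0.41, adjusted p = 0.0204) was higher only with Ctrl replicate L184 (without it log2 fold change 0.58 ± 0.4, adjusted p = 0.204). The CCR9 call there (adjusted p = 0.0464) rested on a single pulmonary library, L242, and turned to a log2 fold change of -1.19 without it. With the rabbit as a block CCR9 was not called (adjusted p = 0.348) and CXCR4 was higher (0.8 ± 0.29, adjusted p = 0.0189). In the tricuspid against the mitral valve only CCL14 of 22 members was higher (log2 fold change 1.04 ± 0.27, adjusted p = 0.00865), at 16.8 CPM (13.1 to 26.2) against 8.78 CPM (3.57 to 12.9), and 0 were lower (4.73% and 1.93% of all genes). With the rabbit as a block 5 were lower as well, CX3CL1 (-1.63 ± 0.34, adjusted p = 0.000464), CXCL8 (-2.14 ± 0.55, adjusted p = 0.00336), CXCR4 (-0.7 ± 0.21, adjusted p = 0.00968), CCL19 (-2.38 ± 0.74, adjusted p = 0.012) and CCR1 (-2.83 ± 0.87, adjusted p = 0.014). Without Ctrl replicate L168, L201 or L264 and with no block the calls in this comparison numbered 6, 3 and 2.

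The log2 fold change of each member was then compared between tissues, as the interaction of tissue and treatment with an adjusted p under 0.05, where a negative difference means a lower log2 fold change in the tissue named first. In the response to CHT 4 of 24 members had a lower log2 fold change in aortic valves than in aortas and 0 a higher one (4.25% and 1.05% of all genes). The difference in log2 fold change was -3.77 ± 0.57 for CXCR4 (adjusted p = 2.13e-05). It was -3.08 ± 0.84 for CXCL10 (adjusted p = 0.0221), a call lost with the rabbit as a block (-2.84 ± 0.89, adjusted p = 0.051) and without Ctrl replicate L198 (log2 fold change -2.58 ± 0.85, adjusted p = 0.0559). CX3CL1 (-2.85 ± 0.83, adjusted p = 0.0326) and CXCR6 (-3.6 ± 1.11, adjusted p = 0.0455) were lost when any 1 of 10 and 17 of the 26 libraries was left out and with plate as a covariate (log2 fold change -2.39, adjusted p = 0.109 and log2 fold change -3.61, adjusted p = 0.0753). The CXCR6 difference was -4.46 without Ctrl replicate L551 and -4.22 without CHT replicate L151. The 4 calls became 2 without any 1 of 10 libraries (Ctrl replicates L150, L166, L198, L568 and L569 and CHT replicates L169, L186, L228, L559 and L572).

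In the response to IR/CHT 4 members had a lower log2 fold change in aortic valves than in aortas and 0 a higher one (21.7% and 11.1% of all genes). These were CXCR4 (-3.96 ± 0.55, adjusted p = 4.02e-07), CX3CL1 (-3.14 ± 0.8, adjusted p = 0.00215), CCL14 (-1.88 ± 0.53, adjusted p = 0.00559) and CXCR6 (-2.66 ± 1.06, adjusted p = 0.0476). CCL14 rose in the aorta and had an uncalled negative value in the aortic valve (log2 fold change -0.75 ± 0.4, adjusted p = 0.122), so its 2 changes were opposite in sign. CXCR6 was lost when any 1 of 19 of the 28 libraries was left out and with plate as a covariate (log2 fold change -2.65, adjusted p = 0.0523), and it was -3.52 without Ctrl replicate L551. With the rabbit as a block CX3CR1 was called too (-1.41 ± 0.49, adjusted p = 0.0275). The Ctrl libraries enter these responses as well as the differences between chow-fed tissues, so the one is not independent of the other.

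Between the left-sided valves 0 of 24 responses to CHT were called by edgeR, with 2 at an unadjusted p under 0.05 (0% of all genes), and with the rabbit as a block 2 were, CXCR4 (-1.32 ± 0.36, adjusted p = 0.0367) and ACKR2 (-1.15 ± 0.34, adjusted p = 0.0492). In the response to IR/CHT 3 of 24 members had a lower log2 fold change in the mitral than in the aortic valve and 0 a higher one (7.26% and 8.41% of all genes), CXCR4 (-1.73 ± 0.4, adjusted p = 0.00283), CCL2 (-2.28 ± 0.59, adjusted p = 0.00655) and CXCL8 (-2.8 ± 0.81, adjusted p = 0.0147). The rabbit block added CCL13 (-3.32 ± 1.07, adjusted p = 0.0187), and without Ctrl replicate L262 5 members were called.

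In the pulmonary valve the log2 fold change under IR/CHT was lower than in the aortic valve for 8 of 22 members and higher for 1 (16.8% and 23.3% of all genes). Without IR/CHT pulmonary valve L176 these were 8 and 0, and without L275 they were 9 and 1. The negative differences with the smallest p were those of CXCL10 (-4.87 ± 0.85, adjusted p = 8.81e-06) and CCL2 (-3.24 ± 0.58, adjusted p = 1.17e-05). CCR1 (-5.49 ± 1.18, adjusted p = 0.0002004, and -4.5 without Ctrl replicate L167) was in this fit only through the aortic valves, where it was high, so its difference is a description. CCL13 (-5.05 ± 1.16, and -5.98 without Ctrl replicate L240), CXCR4 (-1.78 ± 0.44) and CX3CR1 (-1.89 ± 0.53) followed, as did CXCL8 (-2.23 ± 0.82), which was lost without Ctrl replicate L184 (adjusted p = 0.0568). ACKR3, which fell in the aortic valve, had the 1 positive difference (0.89 ± 0.3, adjusted p = 0.0152), lost without IR/CHT replicate L176 (adjusted p = 0.0581), and the rabbit block added ACKR2 (0.84 ± 0.3, adjusted p = 0.0296).

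CCR9 was called in the pulmonary against the aortic valve for both CHT (adjusted p = 0.00256) and IR/CHT (adjusted p = 0.000204), and both calls ended without the single Ctrl library L242 (adjusted p = 0.951 and 0.876). It was the only called member of the CHT response there (4.01% of all genes), and with the rabbit as a block it was replaced by CX3CR1 (-1.51 ± 0.41, adjusted p = 0.0268). Without any 1 of 8 other libraries (Ctrl replicates L153, L198, L200, L240, L263 and L279 and CHT replicates L151 and L267) 2 members were called. In the tricuspid against the mitral valve 0 of 22 responses to CHT were called by edgeR, with 5 at an unadjusted p under 0.05 (2.23% of all genes). For IR/CHT 3 were lower (6.32% of all genes), CX3CR1 (-1.94 ± 0.48, adjusted p = 0.00442), CXCL10 (-3.77 ± 1.22, adjusted p = 0.0388) and CCR6 (adjusted p = 0.0133). CXCL10 was lost when any 1 of 14 of the 27 libraries was left out and with the rabbit as a block (-3.52 ± 1.25, adjusted p = 0.0508), and CCR6, which had no counts in any IR/CHT tricuspid valve, without Ctrl replicate L243 (adjusted p = 0.0706), which left 1 call. The block added ACKR3 (1.05 ± 0.26, adjusted p = 0.00582).

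**Figure D5:**
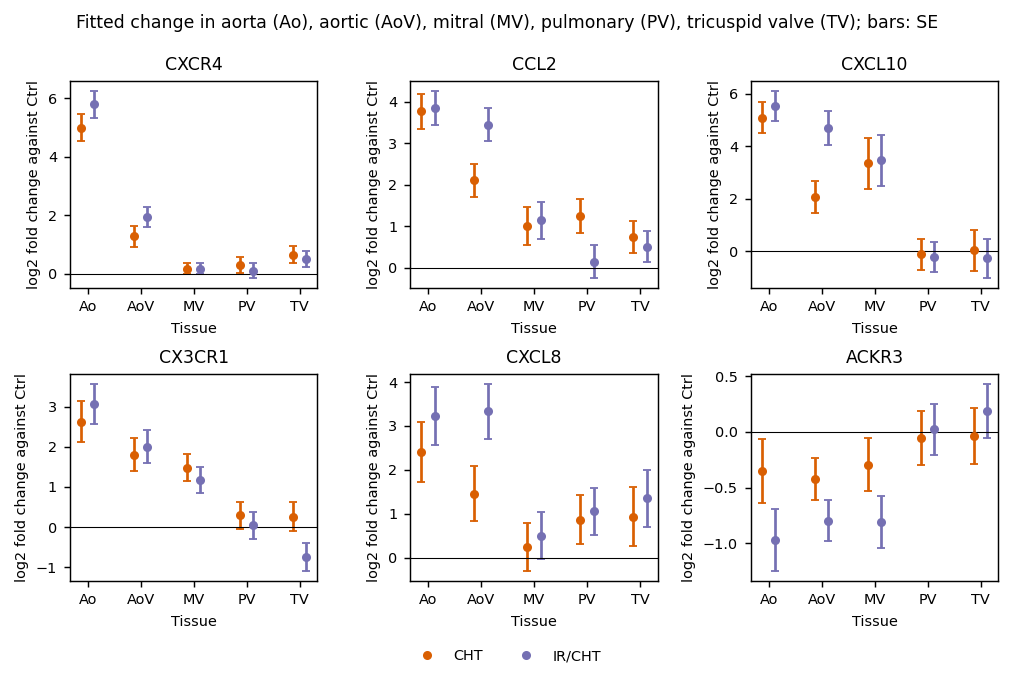
Fitted log2 fold change against Ctrl (vertical axis) with its standard error (bars) for CXCR4, CCL2, CXCL10, CX3CR1, CXCL8 and ACKR3 in each tissue (horizontal axis), for CHT and IR/CHT (colour). CXCR4 reaches 5.79 ± 0.46 in the aorta and 0.17 ± 0.18 in the mitral valve under IR/CHT, and the points of CCL2 in the aorta and aortic valve lie above those of the other valves.

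The genes that act downstream of the receptors were counted from a list of 40 other genes of the pathway, of which 28 were in the files under those symbols. The list was chosen with earlier results of these data known, so the counts below are a description. In the aorta 16 of 28 rose under CHT, 6 of 28 under Lard and 19 of 28 under IR/CHT, where 14.2%, 2.57% and 22.2% of all genes were called higher. The 1 that fell there under CHT was NFKBIA (log2 fold change -0.86 ± 0.14, adjusted p = 3.82e-05), an inhibitor of NF-kappaB, where 5.18% of all genes were called lower. The aortic valve had 12 of 28 higher under CHT and 16 of 28 under IR/CHT (all genes 8.42% and 21.1%), and the mitral valve had 13 of 28 and 15 of 28 (all genes 4.98% and 11.1%), with 0 in either valve under Lard. In IR/CHT against CHT aortic valves 16 of 28 were higher (all genes 9.9%). The pulmonary valve had 4 of 26 higher under IR/CHT (all genes 0.581%) and the tricuspid valve 0.

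Among those with the smallest p under CHT were LYN (log2 fold change 3.03 ± 0.25, adjusted p = 2.53e-09) and VAV1 (log2 fold change 4.17 ± 0.42, adjusted p = 3.19e-08) in the aorta, a kinase and an exchange factor of leukocytes that couple receptors to the cytoskeleton. In the aortic valve they included RGS1 (log2 fold change 6.15 ± 0.49, adjusted p = 1.77e-09), a leukocyte protein that shuts off receptor G proteins, and VAV1 (log2 fold change 2.5 ± 0.32, adjusted p = 2.29e-06). In the mitral valve they included RGS1 (log2 fold change 5.36 ± 0.62, adjusted p = 2.54e-06), VAV1 (log2 fold change 2.46 ± 0.33, adjusted p = 1.57e-05) and PLCB2 (log2 fold change 2.21 ± 0.34, adjusted p = 7.22e-05), a phospholipase of blood cells. RGS1 was at or under 3 counts in every Ctrl aorta and was at least 110.5-fold higher in CHT and at least 140.1-fold higher in IR/CHT aortas. Several of these genes are expressed mainly in leukocytes, whose markers also differed between these groups. In mitral valves the T and NK cell markers summed to 2.06 (1.91 to 2.94) CPM in Ctrl, 9.47 (3.93 to 15.6) CPM in CHT and 22.6 (6.77 to 28.3) CPM in IR/CHT and the B cell markers to 4.27 (2.62 to 9.1), 21.3 (10.2 to 52.1) and 65.5 (25.3 to 99.96) CPM. In aortas the B cell markers summed to 5.27 (2.54 to 16.3), 50.7 (26.5 to 84.7) and 69.2 (22.3 to 104.4) CPM, and in aortic valves the T and NK cell markers to 2.6 (0.984 to 5.02), 13.8 (7.28 to 17.9) and 41.3 (24.7 to 53.1) CPM, in the same order of groups. Their part in the result was not tested.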

How the data were processed

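The authors dissected, snap froze and extracted the tissues, made libraries from total RNA with a stranded low-input kit, and mapped and counted the reads with the nf-core/rnaseq pipeline on the rabbit genome OryCun2.0 with an Ensembl annotation. The deposited values are raw counts per gene and library, not normalized, with gene symbols for 14716 of 29587 genes. From these counts, edgeR 4.0.16 (R 4.3.3) was run per tissue over all 4 groups (group as the factor, filterByExpr, TMM, quasi-likelihood F test, Benjamini-Hochberg adjustment), and per tissue pair with tissue, group and their interaction for chow differences and responses. Calls need an adjusted p under 0.05 and a fold over 1.5, responses the adjusted p alone. Standard errors are the log2 fold change divided by the square root of F. Levels are CPM after 1 TMM scaling over 134 libraries, whereas fits scale within a tissue or tissue pair. A floor of 3 counts per library stands for groups at or under it. Scripts were tested on simulated data with known changes.

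Values per library are given for the 3 called members with the smallest p in each direction and comparison, for the leading member of each role list, and for CCL2, CXCL8, CX3CR1, CXCR4 and ACKR3, and others are added after their values were seen. The members and all gene lists were chosen with earlier results of these data known. Libraries of 1 rabbit share its number, so the rabbit was tried as a block in the tissue pairs. Same-rabbit deviations correlated with a median r of 0.238 for the aortic valve with the aorta, 0.524 for the mitral with the aortic valve, 0.223 for the pulmonary with the aortic valve and 0.337 for the tricuspid with the mitral valve, where different rabbits had medians between -0.03 and 0.01. Alternatives were DESeq2 1.42.0, its size factors in edgeR, no count filter, the 2 compared groups alone, plate as a covariate or alone, and the omission of every library, 1 at a time. A chi-square comparison of counts found no duplicate libraries.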

Additional observations from a re-analysis of the deposited data

Results flagged for a closer look

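Levels of the named members were searched for a single library that stood apart from the rest of its group, by the gap to its nearest neighbour relative to the range of the group. Of 220 groups of libraries 33 held such a library, where the nominal rate of the test is 1 in 20, or 11. That rate holds for normally distributed values. Some groups here, such as those of CCR9, had no counts in all but 1 library and were flagged by that alone. The 33 can therefore not be read as an excess over 11. Several fell on the same library or rabbit. None was left out of a result, and what set them apart was not tested.

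In the aorta, CCR1 was 0.373 CPM in Ctrl replicate L551 (nearest library 0.121 CPM), CXCL8 was 2.55 CPM in CHT replicate L572 (nearest library 1.08 CPM) and CCR9 was 0.0622 CPM in Lard replicate L576 (nearest library 0 CPM). In the aorta, CXCR5 was 0.3698 CPM in CHT replicate L573 (nearest library 0.123 CPM), CXCR5 was 0.307 CPM in Lard replicate L578 (nearest library 0.0639 CPM) and CXCR5 was 0.183 CPM in IR/CHT replicate L566 (nearest library 0.0528 CPM). In the aortic valve, Lard replicate L232 stood apart with CCL13 at 4.39 CPM (nearest library 0.371 CPM), CCR1 at 0.372 CPM (nearest library 0.112 CPM), CCL14 at 17.8 CPM (nearest library 7.798 CPM) and CX3CR1 at 10.6 CPM (nearest library 5.15 CPM). In the aortic valve, CCL13 was 1.34 CPM in Ctrl replicate L240 (nearest library 0.238 CPM), CCL21 was 15.3 CPM in Lard replicate L543 (nearest library 0.729 CPM) and CXCR4 was 37.8 CPM in Ctrl replicate L198 (nearest library 18.3 CPM). There, CXCR4 was 37.1 CPM in Lard replicate L173 (nearest library 26.9 CPM), CX3CL1 was 40.2 CPM in CHT replicate L151 (nearest library 19.9 CPM) and CCR9 was 0.0523 CPM in Ctrl replicate L261 (nearest library 0 CPM). In the mitral valve, CHT replicate L229 stood apart with CXCL10 at 37.8 CPM (nearest library 4.44 CPM) and CCL19 at 4.04 CPM (nearest library 2.06 CPM). In the mitral valve, CCL2 was 8.83 CPM in Lard replicate L233 (nearest library 3.43 CPM), CCL2 was 3.15 CPM in IR/CHT replicate L175 (nearest library 8.01 CPM) and CCR1 was 0.452 CPM in Ctrl replicate L199 (nearest library 0.167 CPM). There, CXCL8 was 3.02 CPM in IR/CHT replicate L237 (nearest library 1.46 CPM), CX3CL1 was 21.3 CPM in Lard replicate L544 (nearest library 12.5 CPM) and CX3CL1 was 83.5 CPM in IR/CHT replicate L195 (nearest library 27.3 CPM). There, CCR9 was 0.0596 CPM in Ctrl replicate L156 (nearest library 0 CPM), CCR9 was 0.0963 CPM in Lard replicate L270 (nearest library 0 CPM) and CCR6 was 0.276 CPM in Lard replicate L249 (nearest library 0.116 CPM). In the pulmonary valve, CHT replicate L230 stood apart with CCL2 at 24.2 CPM (nearest library 7.82 CPM) and CX3CL1 at 5.76 CPM (nearest library 2.52 CPM). In the pulmonary valve, CCL2 was 10.7 CPM in Ctrl replicate L184 (nearest library 3.95 CPM) and CX3CL1 was 9.44 CPM in IR/CHT replicate L275 (nearest library 2.82 CPM). In the tricuspid valve, CCL2 was 16.96 CPM in IR/CHT replicate L197 (nearest library 6.63 CPM) and CXCR4 was 42.8 CPM in Lard replicate L546 (nearest library 30.8 CPM).

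Responses to a treatment that differed between 2 tissues, by the interaction of tissue and treatment in edgeR, are listed here with their adjusted p. The libraries on which they rest are given in the results, and so are their sizes except for CCR9 and CCR6. For the response to CHT, aortic valve against aorta, they were CXCR4 (adjusted p = 2.13e-05), CXCL10 (adjusted p = 0.0221), CX3CL1 (adjusted p = 0.0326) and CXCR6 (adjusted p = 0.0455). For the response to CHT, pulmonary valve against aortic valve, it was CCR9 (adjusted p = 0.00256), a call that ended without Ctrl replicate L242. For the response to IR/CHT, aortic valve against aorta, they were CXCR4 (adjusted p = 4.02e-07), CX3CL1 (adjusted p = 0.00215), CCL14 (adjusted p = 0.00559) and CXCR6 (adjusted p = 0.0476). For the response to IR/CHT, mitral valve against aortic valve, they were CXCR4 (adjusted p = 0.00283), CCL2 (adjusted p = 0.00655) and CXCL8 (adjusted p = 0.0147). For the response to IR/CHT, pulmonary valve against aortic valve, they were CXCL10 (adjusted p = 8.81e-06), CCL2 (adjusted p = 1.17e-05), CCR1 (adjusted p = 0.0002004), CCR9 (adjusted p = 0.000204), CCL13 (adjusted p = 0.000457), CXCR4 (adjusted p = 0.000968), CX3CR1 (adjusted p = 0.00351), ACKR3 (adjusted p = 0.0152) and CXCL8 (adjusted p = 0.0256). For the response to IR/CHT, tricuspid valve against mitral valve, they were CX3CR1 (adjusted p = 0.00442), CCR6 (adjusted p = 0.0133) and CXCL10 (adjusted p = 0.0388).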

How the results depend on the processing

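Counts of called members are given here where they moved by over 1.5 times, and the cause was not tested except that fits to fewer libraries have fewer degrees of freedom. With the 2 compared groups alone, 8 members were called for CHT and 0 for Lard in the aorta, 3 for CHT in the aortic valve and 2 for CHT in the mitral valve. There CCL2 for Lard, CXCL10 and CXCR4 for CHT in the aortic valve and CXCL10 for CHT in the mitral valve missed the threshold, and 7 members in the CHT aorta (CCL5, CCR6, CCR9, CXCL8, CXCL9, CXCL11 and CXCR6) did not pass the count filter. DESeq2 called 5 for Lard in the aorta and 1 for IR/CHT against CHT in the pulmonary valve, and elsewhere stayed within 1.5 times. With libraries of plate 1 alone there were 4 for CHT, 10 for IR/CHT and 3 for IR/CHT against CHT in the aortic valve, and 2 for CHT and 7 for IR/CHT in the mitral valve, and plate 2 alone gave 3 for IR/CHT in the mitral valve. No value could be had for CHT on plate 2 in the aortic and mitral valves, and all aortas were on plate 2. In the response to CHT, aortic valve against aorta, no filter on low counts and plate as a covariate each gave 2 calls. With the rabbit as replicate block, mitral against aortic valve gave 4 calls on chow and 2 in the response to CHT, and tricuspid against mitral valve on chow gave 6, where plate as a covariate gave 2. Beyond the calls named in the results the block changed no other call.

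Leaving out each library in turn gave 15 to 16 calls for CHT, 1 to 4 for Lard and 18 to 20 for IR/CHT in the aorta. It gave 6 to 8 for CHT, 16 to 17 for IR/CHT and 5 to 9 for IR/CHT against CHT in the aortic valve, and 3 to 5 for CHT and 7 to 12 for IR/CHT in the mitral valve. On chow it gave 8 to 11 for aortic valve against aorta, 2 to 4 for mitral against aortic, 4 to 7 for pulmonary against aortic and 1 to 6 for tricuspid against mitral valve. For responses to CHT it gave 2 to 5 for aortic valve against aorta and 0 to 2 for pulmonary against aortic valve, and for responses to IR/CHT 3 to 4, 3 to 5, 8 to 10 and 1 to 4 in the 4 tissue pairs in that order. All other comparisons stayed at 0 to 0. Of the values of single members under all alternatives, 2388 kept direction and side of the threshold, 215 kept direction but missed the threshold and 1 reversed, CCR9 on chow in pulmonary against aortic valve, at -1.19 without Ctrl replicate L242 and up to 4.19 without another library.

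Many members had few counts. CXCL11, CCL5, CCR9 and CCR6 in Ctrl rest on 0 to 3 counts a library in 1 or more tissues, so their folds are bounds or have wide errors. With no count filter 28 members were called for IR/CHT in the aorta, 9 of them under the filter, and DESeq2 called 26, 7 of them under it.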

Other observations

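Among the 11 members that passed the count filter in no tissue, several had the following levels, with adjusted p from edgeR run with no filter. CCR8, a receptor of Th2 and regulatory T cells, was 0 CPM (0 to 0.225) in Ctrl, 0.326 CPM (0.104 to 0.465) in CHT, 0.04999 CPM (0 to 0.0784) in Lard and 0.592 CPM (0.105 to 0.868) in IR/CHT aortic valves (adjusted p = 0.00374 for IR/CHT against Ctrl). XCR1, a receptor of cross-presenting dendritic cells, had no counts in any Ctrl aorta and was 0.175 CPM (0 to 0.669) in CHT, 0.128 CPM (0 to 0.33) in Lard and 0.362 CPM (0.0528 to 0.706) in IR/CHT aortas (adjusted p = 0.00137 for CHT and 0.000214 for IR/CHT). CXCR5, the receptor that brings B cells to follicles, was 0.415 CPM (0 to 1.12) in Ctrl, 0.0518 CPM (0 to 0.37) in CHT, 0 CPM (0 to 0.307) in Lard and 0 CPM (0 to 0.183) in IR/CHT aortas (adjusted p = 0.0308 for IR/CHT, lower). CXCL17, a mucosal chemokine, had 7 counts in all, spread over 5 of the 134 libraries.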
